A study of Mus musculus with 6 samples.

Results

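The SR proteins are a family of splicing factors that bind pre-mRNA through RNA recognition motifs and contact the splicing machinery through a tail of alternating arginine and serine residues, the RS domain. Bound to exonic enhancers they promote inclusion of an exon, and several of them travel to the cytoplasm and act in mRNA export and translation. The family is linked to N6-methyladenosine (m6A), the commonest internal base modification of mRNA, through YTHDC1, a nuclear protein that binds m6A and that in human cells recruits SRSF3 and keeps SRSF10 from its sites. SR genes also limit their own expression by splicing in conserved exons that send the transcript to nonsense-mediated decay.

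The 10 family members described here are Srsf1, Srsf2, Srsf3, Srsf4, Srsf5, Srsf6, Srsf7, Srsf9, Srsf10 and Srsf11. They were chosen by gene name among the 27179 genes of the count table, and all 10 were found and passed the filter on low counts, beside 11281 genes tested in all. RNA came from Cxcl12-DsRed+ bone marrow stroma sorted at P2 (postnatal day 2) from C57BL/6 mice carrying 1 copy of a DsRed reporter in Cxcl12, a chemokine gene of the haematopoietic stem cell niche. Cells with the surface proteins CD45, Ter119 or CD31 were left out of the sort. Poly(A) RNA was pulled down with an antibody to m6A (anti-m6A, 2 libraries) or with IgG (2 libraries), and 6% of the RNA was set aside beforehand as Input (2 libraries). All groups share the reporter genotype, and the labels do not say whether the libraries of a group came from separate animals, so the p-values rest on differences among libraries that may be technical repeats. The sources used here mention no fragmentation of the RNA, and counts are summed over a gene, so a value is the share of a transcript in a library and does not place a methylated base.

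Totals per library were 6102070 and 5133237 counts in anti-m6A, 2487148 and 1278735 in IgG and 7125578 and 9493391 in Input. Of 9 stromal markers all had counts in anti-m6A and Input and 3 were at 0 in both IgG libraries, and the list took 0.362% to 0.364%, 0.449% to 0.502% and 0.914% to 0.95% of the counts in anti-m6A, IgG and Input. The IgG libraries held more of other cells' transcripts than the other libraries. Of 8 hepatocyte markers all had counts in IgG, with 2.06% and 2.19% of the counts, against 0.0927% and 0.0959% in anti-m6A and 0.0108% and 0.182% in Input. Of 8 blood markers 6 had counts in IgG, with 0.633% and 0.643% of the counts, against 0.0576% to 0.0968% in the other libraries, while Ptprc and Elane were at 0 in every library. Of 5 endothelial markers none had counts in IgG, and they took 0.000721% to 0.00786% elsewhere. The part of these differences in the results below was not tested.

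The sequences that carry the family's name are the stretches of RS-coding sequence. A stretch of 20 codons is shown for the most abundant member in IgG (Srsf2), for the member called lower than Input (Srsf6), for the member with the fewest arginine and serine codons (Srsf9) and for the member with the highest ratio to Input (Srsf10), with capitals for codons of arginine and serine. They are from GENCODE M21 transcripts on GRCm38, at chr11:116852256-116852315 (minus strand), chr2:162933852-162934276 (plus strand, across an intron), chr5:115332594-115332653 (plus strand) and chr4:135863105-135863164 (plus strand).
Srsf2: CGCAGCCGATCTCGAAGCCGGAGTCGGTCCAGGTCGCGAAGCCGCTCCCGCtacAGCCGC
Srsf6: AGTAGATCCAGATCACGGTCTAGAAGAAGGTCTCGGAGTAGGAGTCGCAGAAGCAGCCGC
Srsf9: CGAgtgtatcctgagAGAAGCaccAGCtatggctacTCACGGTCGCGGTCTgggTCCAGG
Srsf10: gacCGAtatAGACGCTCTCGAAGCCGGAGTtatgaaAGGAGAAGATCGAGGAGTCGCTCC

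These stretches differ in how densely they alternate. The Srsf6 stretch consists of 11 arginine and 9 serine codons, and the Srsf9 stretch holds 5 and 6 among its 20. Over whole coding sequences the 2 codon types made up 22.1% in Srsf9 and 45.7% in Srsf2, the lowest and highest of the 10 members, against a median of 13.5% over the 10321 tested genes with a matched coding transcript. Adjacent arginine-serine or serine-arginine pairs numbered 106 in Srsf4, 74 in Srsf6 and 9 in Srsf9.

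The antibody's target base lies in short motifs, of which GGACT is a common core form. It was searched on the transcript strand of 1 coding transcript per gene, and 9 of the 10 members held at least 1 match, as did 91.6% of the transcripts searched. The matches below are shown with GGACT in capitals. Each is the only one in its transcript, or, for Srsf7 and Srsf9, 1 of 2 and 1 of 3. The only match of Srsf4, in its 3′ UTR, is not printed. They lie at chr11:116853006-116853030 (Srsf2, minus strand, 5′ UTR), chr17:29043161-29043185 (Srsf3, plus, 3′ UTR), chr2:162932005-162932029 (Srsf6, plus, coding), chr17:80201540-80201564 (Srsf7, minus, where the match ends on the first base of the stop codon), chr5:115330562-115330586 (Srsf9, plus, coding), chr4:135868249-135868273 (Srsf10, plus, 3′ UTR) and chr3:158022859-158022883 (Srsf11, minus, coding), all on GRCm38.
Srsf2: ctacccacgaGGACTgtagctaccg
Srsf3: accctgtattGGACTgtaataaaca
Srsf6: tggagttcgaGGACTcccgggatgc
Srsf7: cagaaagaatGGACTgaagttctca
Srsf9: gagttccccaGGACTtacggaggtc
Srsf10: ttatcccaatGGACTtagtatattc
Srsf11: gcctggtggtGGACTcctgcctacc

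**Figure D1:**
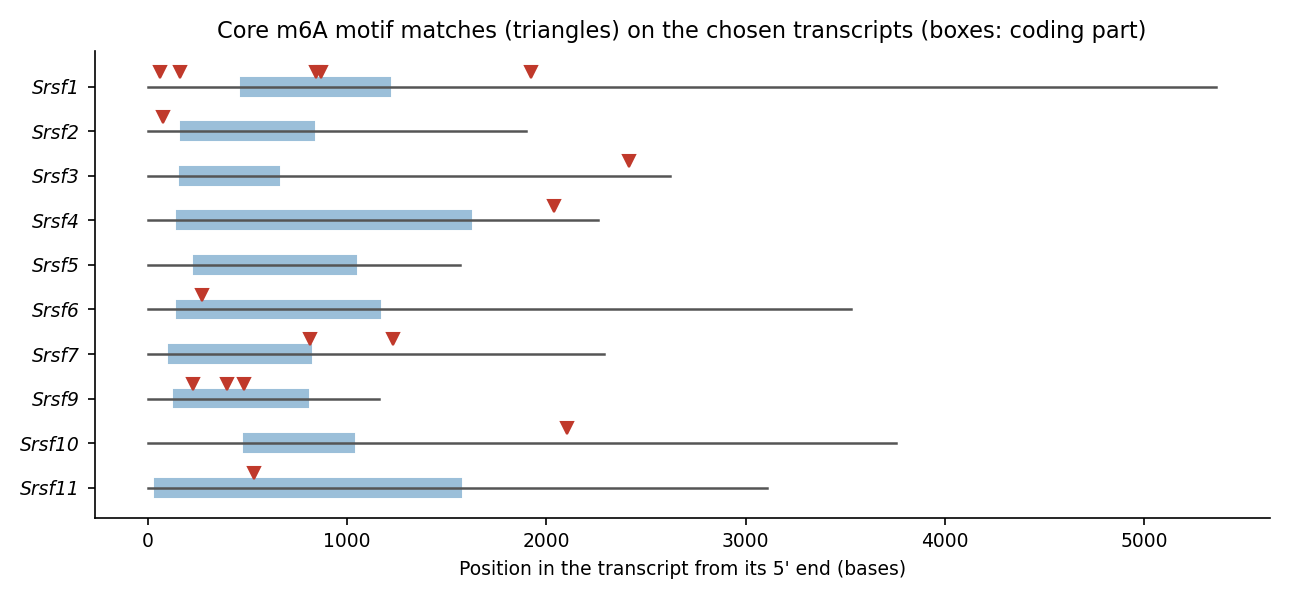
Position of each GGACT match (triangles) along the chosen transcript of each SR gene, in bases from its 5′ end, with the coding part as a box and the rest as a line. Srsf1 holds 5 matches, Srsf9 holds 3 and Srsf5 holds none, and the matches of Srsf3, Srsf4 and Srsf10 lie behind the coding part.

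The SR transcripts were sparse in this motif. The members had a median of 0.41 GGACT per kb, against 1.06 per kb over all matched tested genes. Srsf9, the shortest transcript at 1162 bases, had the densest matches at 2.58 per kb, and at least 3 matches occurred in 20% of 474 transcripts within 10% of its length. Srsf5 had no match, while 86.4% of 765 transcripts of like length had at least 1. Adding the forms GAACT, with A at its second place, AGACT, with A at the front, and AAACT, with both, none of which can overlap GGACT, brought Srsf5 to 6.38 matches per kb, the highest of the members, while the member median was 3.83 and that of all genes 4.59 per kb. A match is a string in a transcript and not a measured m6A site.

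Of the 10 SR transcripts, all were counted in each anti-m6A and Input library, and 5 had counts in IgG. The 10 genes together took 7692 and 5854 counts in anti-m6A, 2221 and 749 in IgG and 17520 and 21752 in Input. Scaled to library size (CPM, TMM-scaled counts per 1e6), the sum was 1540 ± 84.6 CPM in anti-m6A, 672 ± 264 in IgG and 2090 ± 26 CPM in Input (SD, n = 2 each). The libraries of the 3 groups did not overlap in this sum.

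Which members made up the sum differed between groups. Srsf2 took 67.8% (exact 95% binomial interval 65.8 to 69.7) and 70.9% (67.5 to 74.1) of the family's counts in IgG, against 24.1% and 12.9% in Input. It took 22.7% and 11.7% in anti-m6A. Srsf10 took 10.3% and 11.6% in anti-m6A, 22.6% and 24.6% in IgG and 5.94% and 5.66% in Input. Srsf6 took 5.75% and 6.71% in anti-m6A, 0% in both IgG libraries and 14.1% and 15.2% in Input. Srsf2 and Srsf10 thus held most of the family's IgG counts, and the intervals take in counting error alone, because the amplified reads carry no molecular identifiers.

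**Figure D2:**
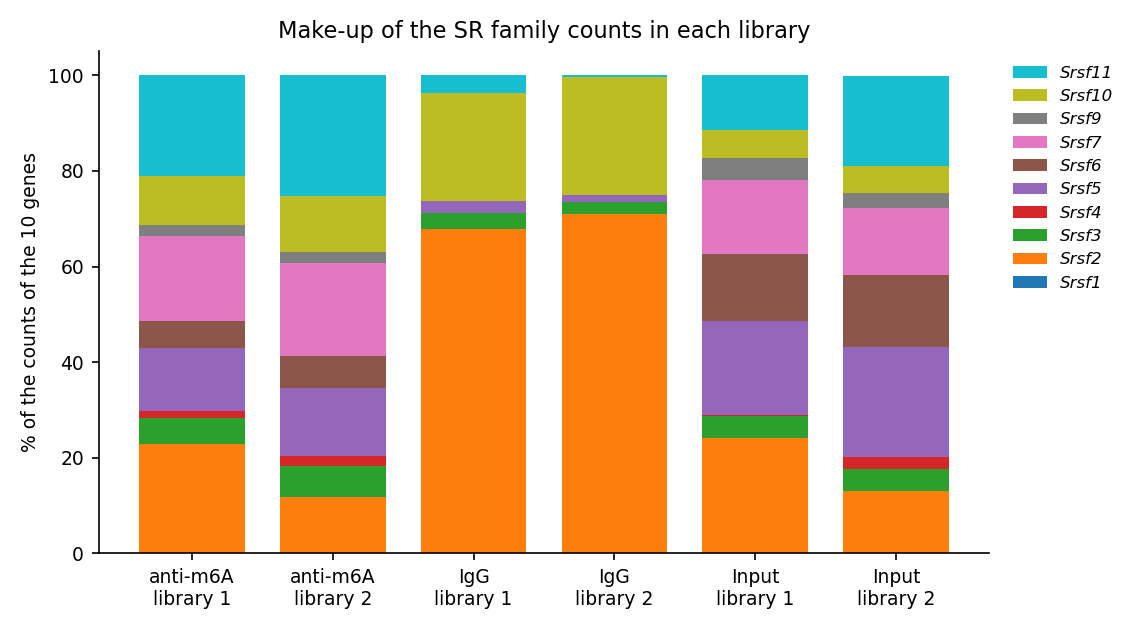
Share of each SR gene, in percent of the counts of the 10 genes, in each of the 6 libraries (stacked bars; anti-m6A, IgG and Input from left to right). Srsf2 takes 67.8% and 70.9% of the bar in the IgG libraries, and Srsf4, Srsf6, Srsf7 and Srsf9 appear in the anti-m6A and Input bars but not in the IgG bars.

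Per kb of transcript, the order of the levels was led by Srsf2 and Srsf5 in anti-m6A and in Input. In anti-m6A, Srsf2 stood at 141 ± 70.8 and Srsf5 at 134 ± 0.761 CPM per kb, a gap smaller than their spread. Srsf7 (124 ± 1.85), Srsf11 (114 ± 9.13), Srsf10 (44.7 ± 1.26), Srsf3 (35.6 ± 2.07), Srsf9 (31.0 ± 2.39), Srsf6 (27.0 ± 1.48), Srsf4 (11.5 ± 1.65) and Srsf1 (0.124 ± 0.0429) followed, each apart from its neighbour by more than the larger SD. In IgG, Srsf2 (244 ± 88.5) and Srsf10 (41.7 ± 14.0) stood apart, and Srsf5, Srsf3 and Srsf11 lay at 5.42 to 9.51 CPM per kb, within their spread. In Input the order was Srsf5 (285 ± 35), Srsf2 (203 ± 84.8), Srsf7 (134 ± 7.30), Srsf11 (103 ± 36.9), Srsf6 (86.9 ± 5.95), Srsf9 (69.0 ± 18.2), Srsf3 (36.8 ± 1.26), Srsf10 (32.3 ± 0.692), Srsf4 (12.2 ± 14.7) and Srsf1 (0.390 ± 0.114). The first 5 of these could not be separated from the next in the order by more than the larger SD, nor could Srsf4 from Srsf1 (all SD, n = 2).

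**Figure D3:**
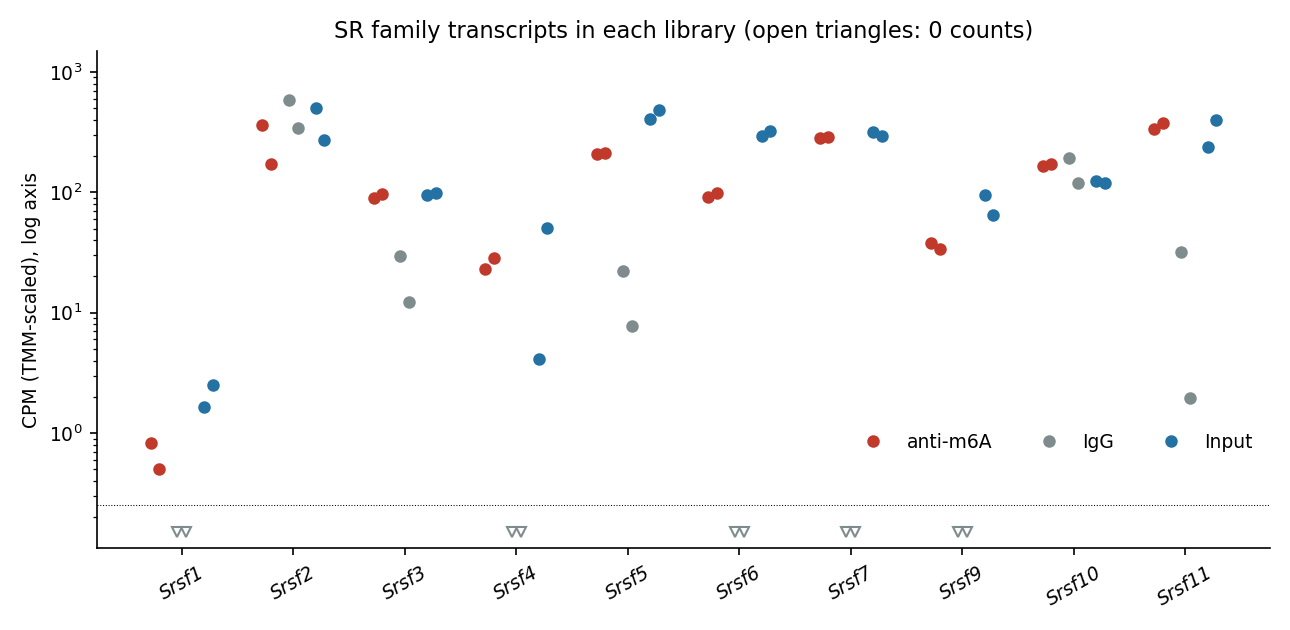
Level of each SR transcript in CPM (log axis) in each library, with anti-m6A, IgG and Input from left to right within a gene; open triangles under the dotted line are libraries with 0 counts. Srsf1, Srsf4, Srsf6, Srsf7 and Srsf9 have 0 counts in both IgG libraries, and Srsf4 is at 4.14 and 50.9 CPM in the Input libraries.

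Setting anti-m6A against IgG compares the share of each SR transcript in the antibody pull-down with its share in the IgG pull-down. Levels are scaled to library size, so the amounts of RNA recovered are not compared. The quasi-likelihood test of edgeR (adjusted p under 0.05) placed 8 of the 10 members higher in anti-m6A and 0 lower; of all genes tested 73.1% were called higher and 8.31% lower, so the members' share lies near the background. The members not called were Srsf2 and Srsf10, and 0 members were lower at an unadjusted p under 0.05 or by DESeq2's Wald test. With the replicate number as a block, 7 members were higher and 1, Srsf2, was lower, against 69.3% and 7.77% of all genes. The 5 members at 0 in both IgG libraries compare with 73.4% of all tested genes at 0 there. Of the 2235 genes with at least 100 CPM in Input, 45.7% were at 0 in both IgG libraries, and of the 6 members at that level 2 were, Srsf6 and Srsf7.

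Setting anti-m6A against Input shows how the share of each transcript changed over the pull-down. Among the 10 members 0 were higher than Input and 1, Srsf6, was lower by edgeR's test, against 28.0% of all tested genes called higher and 20.5% called lower. The members' log2 changes had a median of -0.32 and ran between -1.68 and 0.47, against a median of 0.18 over all genes tested. The groups did not overlap for 6 members, with Srsf10 above Input in both anti-m6A libraries and Srsf1, Srsf5, Srsf6, Srsf7 and Srsf9 below. Of all tested genes 44.3% lay above Input without overlap and 34.4% below, so a lack of overlap was common and is not a result about the members. At an unadjusted p under 0.05 there were still 0 higher members, and 3 lower ones (Srsf1, Srsf6 and Srsf9). The share of all genes at that threshold was not counted, here or for the lists below, so these numbers have no background. When DESeq2's size factors replaced TMM, the median of all genes was -0.22 and 4 members were called lower (Srsf1, Srsf5, Srsf6 and Srsf9), against 26.4% of all genes. Of the 10 members 0 passed edgeR's adjusted test as higher in anti-m6A than in both IgG and Input, against 23.6% of all genes. At an unadjusted p under 0.05 the members again numbered 0. The 2 comparisons share the anti-m6A libraries.

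**Figure D4:**
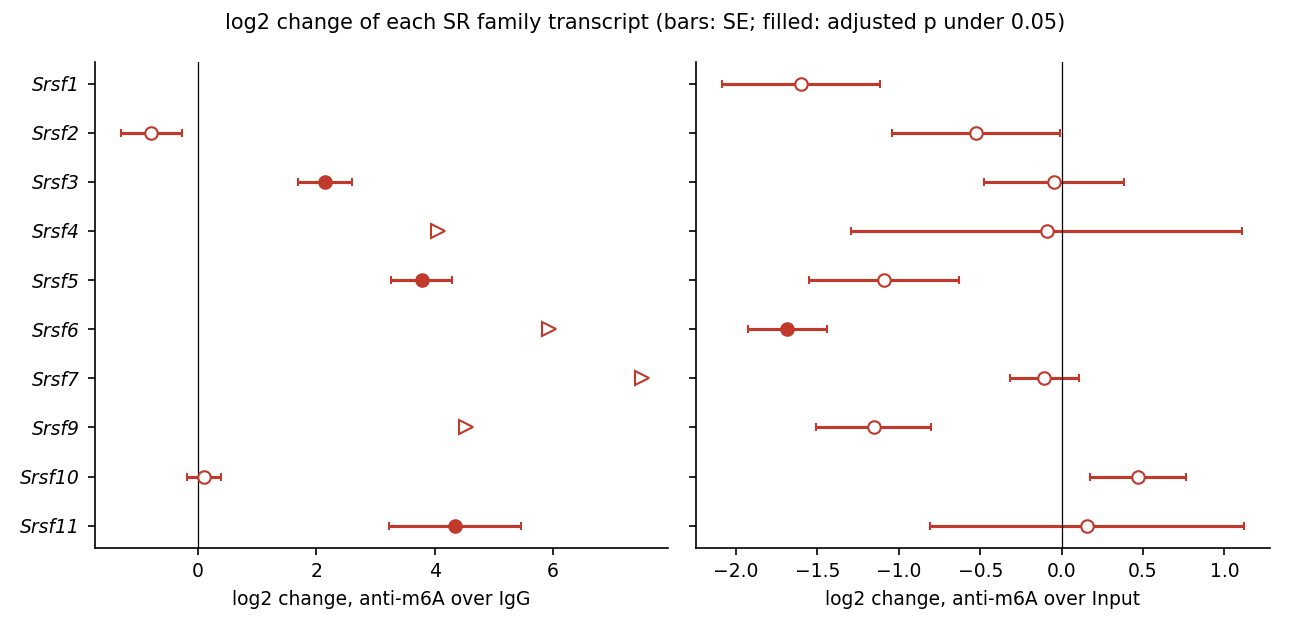
log2 change of each SR transcript in anti-m6A over IgG (left) and over Input (right), with SE bars (n = 2 per group); filled points passed an adjusted p of 0.05, and open arrowheads are lower bounds for members at 0 in IgG, all 4 of them called higher. Srsf1, at 4 and 2 counts in anti-m6A, has no bound and no point on the left. Over IgG, Srsf2 lies at -0.79 and Srsf10 at 0.10; over Input, Srsf6 at -1.68 is the one filled point.

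Among the members that act as adaptors for mRNA export, Srsf3 and Srsf7 had anti-m6A levels close to those of Input under TMM scaling. Srsf3, the smallest SR protein, which binds the export receptor NXF1, had counts of 431 and 385 in anti-m6A, 76 and 19 in IgG and 795 and 1018 in Input. These counts stand for 89.4 and 97.1 CPM in anti-m6A, 29.4 and 12.3 in IgG and 94.1 and 98.8 CPM in Input. The anti-m6A libraries thus lay above both IgG libraries and among the Input libraries. The log2 change was 2.14 ± 0.456 against IgG (SE from the fit of all 6 libraries, n = 2 per group, edgeR adjusted p = 0.00742). Against Input it was -0.05 ± 0.429 (adjusted p = 0.939). Srsf3 shares 1298 bases at 98.3% identity with Gm12355 and shorter stretches with 4 processed pseudogenes, none of them in the count table, so its count may hold or lack reads of these copies.

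Srsf7, which carries a zinc knuckle beside its RNA recognition motif, was abundant in anti-m6A and Input and uncounted in IgG. Its counts were 1358 and 1141 in anti-m6A, 0 and 0 in IgG and 2690 and 3038 in Input. Its level of 282 and 288 CPM in anti-m6A lay just under the 318 and 295 CPM in Input. Against IgG it was at least 183-fold higher, taken over a floor of 3 counts per IgG library (1.16 and 1.94 CPM, edgeR adjusted p = 0.000548). Against Input its log2 change was -0.11 ± 0.212 (SE, edgeR adjusted p = 0.716). The Input change was -0.65 with library totals (edgeR adjusted p = 0.0676). It passed the threshold by DESeq2's Wald test, at -0.55 (adjusted p = 0.0287). A count of 0 in a small eluate does not show that a transcript is absent from it.

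Srsf10, which acts as a splicing repressor when dephosphorylated, was recovered by IgG as well as by the m6A antibody. It had counts of 793 and 679 in anti-m6A, 501 and 184 in IgG and 1041 and 1232 in Input, or 164 and 171 CPM in anti-m6A, 194 and 119 in IgG and 123 and 120 in Input. The anti-m6A libraries lay between the IgG libraries and above both Input libraries. Its log2 change was 0.10 ± 0.295 against IgG (SE, edgeR adjusted p = 0.776) and 0.47 ± 0.294 against Input (adjusted p = 0.244). Against Input the sign turned with library totals as scaling (-0.08) and in a fit of genes with 10 or more counts in every library (-0.10). The processed pseudogene Gm5446, 97.3% identical over 482 bases, had counts of 128 and 125 in anti-m6A, 2 and 4 in IgG and 90 and 156 in Input.

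Srsf2, a component of nuclear speckles that also acts in transcription elongation, was the most abundant SR transcript in IgG. It had counts of 1747 and 683 in anti-m6A, 1505 and 531 in IgG and 4217 and 2797 in Input. This gave 362 and 172 CPM in anti-m6A, 582 and 344 in IgG and 499 and 271 CPM in Input, and the 3 groups overlapped. The log2 change was -0.79 ± 0.517 against IgG (SE, edgeR adjusted p = 0.203) and -0.53 ± 0.515 against Input (adjusted p = 0.443).

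The libraries numbered 1 held more Srsf2 than those numbered 2 in each group. The higher library exceeded the lower by 2.10-fold in anti-m6A, where 3.25% of 9234 genes differed at least as much, by 1.69-fold in IgG (22.6% of 2123 genes) and by 1.84-fold in Input (38.7% of 9053 genes). Of 1589 genes at 20 or more counts in every library, 33 (2.08%) were at least 1.5-fold higher in library 1 of all 3 groups, Srsf2 among them, and 0 were lower by that fold in all 3. Srsf2 shares exons on the other strand with Mettl23 and Mfsd11, and the library method does not mark strand. Mettl23 had counts of 330 and 284 in anti-m6A, 1661 and 900 in IgG and 152 and 799 in Input, so it too was high in IgG, while Mfsd11 was at 0 in both IgG libraries. Reads of Srsf2 and of these partners cannot be told apart in the shared bases.

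The members with a pair of RNA recognition motifs are Srsf1, Srsf4, Srsf5, Srsf6 and Srsf9. They had low or no counts in IgG, as did Srsf3, Srsf7 and Srsf11. Srsf6, an activator of exon inclusion with a long RS domain, was counted 442 and 393 times in anti-m6A, 0 times in IgG and 2465 and 3313 times in Input. Its 91.7 and 99.1 CPM in anti-m6A stood at least 61.4-fold above the IgG floor (edgeR adjusted p = 0.000552) and well below the 292 and 321 CPM in Input. The log2 change against Input was -1.68 ± 0.24 (SE from the fit of all 6 libraries, edgeR adjusted p = 0.00867). Without anti-m6A library 1 it was -1.61 (adjusted p = 0.147) and without library 2 it was -1.79 (adjusted p = 0.125), in fits that called 0.614% and 0.776% of all genes lower.

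Srsf5, which with Srsf2 led the family per kb in Input, had a far smaller share of the IgG libraries than of the anti-m6A libraries. It had counts of 1008 and 836 in anti-m6A, 57 and 12 in IgG and 3452 and 5010 in Input. The anti-m6A libraries, at 209 and 211 CPM, lay above the 22.0 and 7.78 CPM of IgG and below the 409 and 486 CPM of Input. The log2 change was 3.78 ± 0.518 against IgG (SE, edgeR adjusted p = 0.00190) and -1.09 ± 0.458 against Input (adjusted p = 0.105). The Input comparison passed with other scalings. With DESeq2's size factors the log2 change was -1.53 (edgeR adjusted p = 0.0178), and with library totals it was -1.63 (adjusted p = 0.0211). It also passed with only the 2 groups compared, at -1.01 (edgeR adjusted p = 0.0316). A processed pseudogene, Gm12966, is 99.0% identical to Srsf5 over 810 bases and has no row in the count table.

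Srsf9, with the fewest arginine-serine pairs, was counted 183 and 135 times in anti-m6A, 0 times in IgG and 804 and 672 times in Input. Its 38.0 and 34.0 CPM in anti-m6A lay below the 95.1 and 65.2 CPM in Input and at least 23.2-fold above the IgG floor (edgeR adjusted p = 0.000874). The log2 change against Input was -1.15 ± 0.352 (SE, edgeR adjusted p = 0.0570), and -1.61 (adjusted p = 0.0278) with DESeq2's size factors. With only the 2 groups compared it was -1.04 (edgeR adjusted p = 0.0369).

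Srsf4, which has the most arginine-serine pairs of the family, differed most between the Input libraries. It shares 1447 bases at 100% identity with Gm12992 on the other strand, and reads in these bases cannot be told apart. Gm12992 had counts of 0 and 1 in anti-m6A and 0 in the other libraries. Srsf4 was counted 112 and 113 times in anti-m6A, 0 times in IgG and 35 and 525 times in Input. This gave 23.2 and 28.5 CPM in anti-m6A and 4.14 and 50.9 CPM in Input. The Input libraries thus lay on either side of the anti-m6A libraries, 12.3-fold apart, a ratio that 7.83% of 9053 genes reached. The log2 change against Input was -0.09 ± 1.2 (SE, edgeR adjusted p = 0.962); without Input library 2 it was 2.63 (adjusted p = 0.00206) and without Input library 1 it was -0.96 (adjusted p = 0.0162). Against IgG it was at least 16.7-fold higher (adjusted p = 0.0190), a call lost without IgG library 1 (adjusted p = 0.0680) or IgG library 2 (0.0550).

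Srsf1, the founding member of the family, which binds purine-rich exonic enhancers, was scarcely counted. Its counts were 4 and 2 in anti-m6A, 0 and 0 in IgG and 14 and 26 in Input, and it stood at the 19.7th percentile of tested genes in Input, the lowest of the family. Its anti-m6A level lay under the IgG floor, so no fold is given against IgG; the call (edgeR adjusted p = 0.0395) was lost when any 1 library was left out (adjusted p from 0.0867 to 0.341). The log2 change against Input was -1.60 ± 0.485 (SE, adjusted p = 0.0561). It shares 101 bases with an antisense gene, Gm11508.

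Srsf11, a more distant member of the SR family, had the highest mean CPM of the family in anti-m6A, although Srsf2 stood above it in library 1. It was at 335 and 375 CPM in anti-m6A, against 31.7 and 1.94 in IgG and 238 and 400 CPM in Input. The counts were 1614 and 1487 in anti-m6A, 82 and 3 in IgG and 2007 and 4121 in Input. The anti-m6A libraries lay above both IgG libraries and between the Input libraries. The IgG libraries differed by 16.3-fold, as much as 2.36% of 2123 genes. The log2 change was 4.35 ± 1.12 against IgG (SE, edgeR adjusted p = 0.0152), from 3.47 to 7.51 when 1 library was left out, and 0.16 ± 0.963 against Input (adjusted p = 0.910), where it turned to -0.27 with DESeq2's size factors and -0.38 with library totals.

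The comparison of IgG with Input gives each member's share in the bead background relative to its share in Input. By edgeR's test 0 members were higher in IgG than in Input (0 also at an unadjusted p under 0.05) and 8 were lower, against 9.89% and 61.5% of all genes tested. Srsf6 and Srsf7 were each at least 197-fold lower in IgG, Srsf9 at least 51.6-fold, Srsf4 at least 17.7-fold and Srsf1 at least 1.35-fold. The log2 changes of the others called were -2.19 ± 0.456 for Srsf3 (edgeR adjusted p = 0.00762), -4.88 ± 0.542 for Srsf5 (0.00101) and -4.19 ± 1.12 for Srsf11 (0.0189). Srsf2 and Srsf10 were not called, at 0.27 ± 0.514 (adjusted p = 0.713) and 0.37 ± 0.295 (adjusted p = 0.317), and both signs turned with DESeq2's size factors (-0.27 and -0.15). The Srsf4 call was lost without IgG library 1 (edgeR adjusted p = 0.0742) or 2 (0.0597), and the Srsf1 call without anti-m6A library 1 (0.146) or 2 (0.144).

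A gene count sums isoforms that SR genes are known to make. GENCODE M21 lists 19 transcripts of Srsf11, of which 5 are coding, 3 are marked for nonsense-mediated decay and 11 retain an intron. Srsf3 has 10, of which 1 is coding, 2 are marked for decay and 4 retain an intron. Srsf6 has 4, namely 2 coding, 1 marked for decay and 1 with a retained intron. Srsf10 has 10, with 4 coding and none in either class. The counts do not separate these forms, so a change of isoform between the fractions cannot be seen here.

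The genes whose pattern over the 6 libraries lay nearest to a member were looked up by the Euclidean distance of log2(CPM + 1). Srsf9 had the closest companion, Map2k3, at a distance of 0.0458, with counts of 179 and 135 in anti-m6A, 0 in IgG and 802 and 688 in Input. Nop53 lay at 0.134 from Srsf7, with 1403 and 1179 counts in anti-m6A, 0 in IgG and 2782 and 2822 in Input. Kpna3 (0.222) and Pex2 (0.267) shared the pattern of Srsf4, Kpna3 with 102 and 106 counts in anti-m6A, 0 in IgG and 37 and 581 in Input. Kpna3 and Pex2 were picked for likeness over these same 6 libraries, so their Input split had to resemble that of Srsf4. Without such picking, 7.83% of 9053 genes had Input libraries at least as far apart as those of Srsf4. Srsf2 and Srsf11 had no gene nearer than 1.14 (Itgb1) and 1.06 (Rac1).

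Proteins related to the SR family by an RS domain were measured as a companion list of 25 genes, of which 24 were tested. Against Input, edgeR's test (adjusted p under 0.05) called 4 of them higher and 3 lower in anti-m6A. These are 16.7% and 12.5%, beside 28.0% and 20.5% of all genes tested. At an unadjusted p under 0.05 there were 5 and 5, with no share of all genes counted. The median log2 change was 0.19. Against IgG it called 19 higher and 0 lower, and 0 lower at an unadjusted p under 0.05. The higher share is 79.2%, and of all genes tested 73.1% were called higher and 8.31% lower. Son and Srrm2, large scaffold proteins of nuclear speckles, were higher than Input by log2 changes of 1.71 ± 0.275 (adjusted p = 0.00756) and 1.68 ± 0.245 (adjusted p = 0.00716). Son stood at 3370 and 3510 CPM in anti-m6A, 442 and 265 in IgG and 1130 and 970 CPM in Input, and Srrm2 at 2410 and 2740, 390 and 288, and 926 and 682 CPM in the same groups. Tra2b, a splicing activator, was higher than Input by 1.21 ± 0.269 (adjusted p = 0.0175) but stood at 0.33 ± 0.266 against IgG (adjusted p = 0.284). Srrm1 was the other gene called, at 1.09 ± 0.216 (adjusted p = 0.0188), and the third of the highest values was that of Scaf1, at 1.53 ± 0.476 (adjusted p = 0.0602). The lower genes were Rnps1 and Acin1, which join the exon junction complex, at -1.85 ± 0.354 (adjusted p = 0.0172) and -1.58 ± 0.468 (adjusted p = 0.0410), and Bclaf1 at -1.27 ± 0.264 (adjusted p = 0.0147). Scaf4 stood at -1.82 ± 0.571 (adjusted p = 0.0609). Srsf12, the remaining SR gene of the table, had 9 and 4 counts in Input and 0 elsewhere and was not tested.

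Among the enzymes and carriers that act on SR proteins, 2 of 12 tested genes rose and 4 fell in anti-m6A relative to Input. These are 16.7% and 33.3%, beside 28.0% and 20.5% of all genes tested. The median log2 change was -0.46. Against IgG 8 were higher and 2 lower (66.7% and 16.7%, beside 73.1% and 8.31% of all genes). The higher genes were the kinase Prpf4b (2.42 ± 0.703, edgeR adjusted p = 0.0387) and Top1, a topoisomerase that also phosphorylates SR proteins (1.47 ± 0.315, adjusted p = 0.0159). The lower genes were the phosphatase subunit Ppp1cb (-4.11 ± 0.794, adjusted p = 0.0175), the SR import receptor Tnpo3 (-2.34 ± 0.451, adjusted p = 0.0118) and the kinases Clk3 (-2.10 ± 0.387, adjusted p = 0.0156) and Clk1 (-1.36 ± 0.356, adjusted p = 0.0283). Tnpo3 and Clk1 were also the 2 genes lower than IgG, Clk1 at 55.8 and 39.3 CPM in anti-m6A, against 378 and 220 CPM in IgG. The kinase Clk2 stood at 0.85 ± 0.553 against Input (adjusted p = 0.274), and Srpk1, which phosphorylates RS domains in the cytoplasm, at -0.25 ± 0.375 (adjusted p = 0.624).

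Partners in mRNA export and the exon junction complex gave 4 higher and 2 lower genes of 11 against Input (median 0.29). These are 36.4% and 18.2%, beside 28.0% and 20.5% of all genes tested. Against IgG 9 were higher and 1 lower (81.8% and 9.09%, beside 73.1% and 8.31% of all genes). Ythdc1, the nuclear m6A reader, was counted 1531 and 1254 times in anti-m6A, 0 times in IgG and 1008 and 1602 times in Input, a log2 change against Input of 1.21 ± 0.260 (edgeR adjusted p = 0.0233). Rbm8a and Magoh, the core pair of the exon junction complex, were higher than Input by 1.69 ± 0.283 (edgeR adjusted p = 0.00820) and 2.59 ± 0.305 (adjusted p = 0.00716). Magoh was also higher in IgG than in Input, by 1.56 ± 0.295 (edgeR adjusted p = 0.00532), and stood at 1.03 ± 0.291 against IgG (adjusted p = 0.0207). Rbm8a had 1 and 0 counts in IgG. Nxt1, the cofactor of Nxf1, was counted 805 and 804 times in anti-m6A and 0 times in IgG and Input. This was at least 572-fold above the Input floor (edgeR adjusted p = 0.00716). Of all genes tested 12.3% were at 0 in both Input libraries, so a 0 there is not particular to Nxt1. Nxf1 itself, the export receptor, was lower than Input by -1.97 ± 0.316 (adjusted p = 0.0114). Casc3 had 1 count over both anti-m6A libraries and 441 over both Input libraries, a ratio of 0.00484 with an exact 95% counting interval of 0.000122 to 0.0271 (adjusted p = 0.00832). Alyref stood at -2.06 ± 0.729 (adjusted p = 0.0672).

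The hnRNP proteins, which often oppose SR proteins at exons, gave 0 higher and 2 lower genes of 15 against Input (median -0.70). At an unadjusted p under 0.05 there were again 0 and 2. The lower share is 13.3%, and of all genes tested 28.0% were higher and 20.5% lower. Against IgG 9 were higher and 1 lower (60% and 6.67%, beside 73.1% and 8.31% of all genes). Ptbp1, a repressor of exon inclusion, was lower than Input by -1.59 ± 0.291 (edgeR adjusted p = 0.0154) and Hnrnpa0 by -1.05 ± 0.305 (adjusted p = 0.0388). Hnrnpab stood at 264 and 221 CPM in anti-m6A, 2060 and 2110 in IgG and 237 and 232 CPM in Input, and was the gene lower than IgG. The other extremes were not called: Hnrnpa3 at -2.10 ± 0.785 (adjusted p = 0.0931), Hnrnph1 at -1.80 ± 1.15 (0.252), Hnrnpdl at 0.57 ± 0.399 (0.302) and Hnrnpa2b1 at 0.13 ± 0.212 (0.661).

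Factors of nonsense-mediated decay gave 1 higher and 1 lower gene of 9 against Input (median -0.74). Each is 11.1%, beside 28.0% higher and 20.5% lower of all genes tested. Against IgG 6 were higher and 0 lower, also at an unadjusted p under 0.05. The higher share is 66.7%, and of all genes 73.1% were higher and 8.31% lower. Upf2 was higher than Input by 1.96 ± 0.453 (edgeR adjusted p = 0.0196). Smg8 had 1 count over both anti-m6A libraries and 198 over both Input libraries, a ratio of 0.0108 with an exact 95% counting interval of 0.000272 to 0.0608 (adjusted p = 0.0129). Upf1, the central helicase, stood at -1.39 ± 0.550 (adjusted p = 0.107), Smg5 at 0.60 ± 0.465 (0.350) and Upf3b at 2.25 ± 1.65 (0.327). The Upf3b counts were 10 and 628 in the Input libraries, so its Input pair was split like that of Srsf4. Genes called higher than both IgG and Input numbered 3 of 24 SR-related proteins, 1 of 12 SR kinases, phosphatases and importers, 4 of 11 export and exon junction partners, 0 of 15 hnRNP proteins and 0 of 9 decay factors, against 23.6% of all genes tested. At an unadjusted p under 0.05 these counts were 7, 2, 4, 0 and 1 in the same order of lists, with no share of all genes counted. Of the 23 companion genes called against Input, 11 were higher and 12 lower. Leaving out an anti-m6A library leaves 1 in that group, and most of these calls, like most of those over all genes, were then lost. Of the 11 higher genes 7 were still called with DESeq2's size factors or library totals, without Srrm1, Tra2b, Prpf4b and Ythdc1. No test was made of the lists against the SR family.

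**Figure D5:**
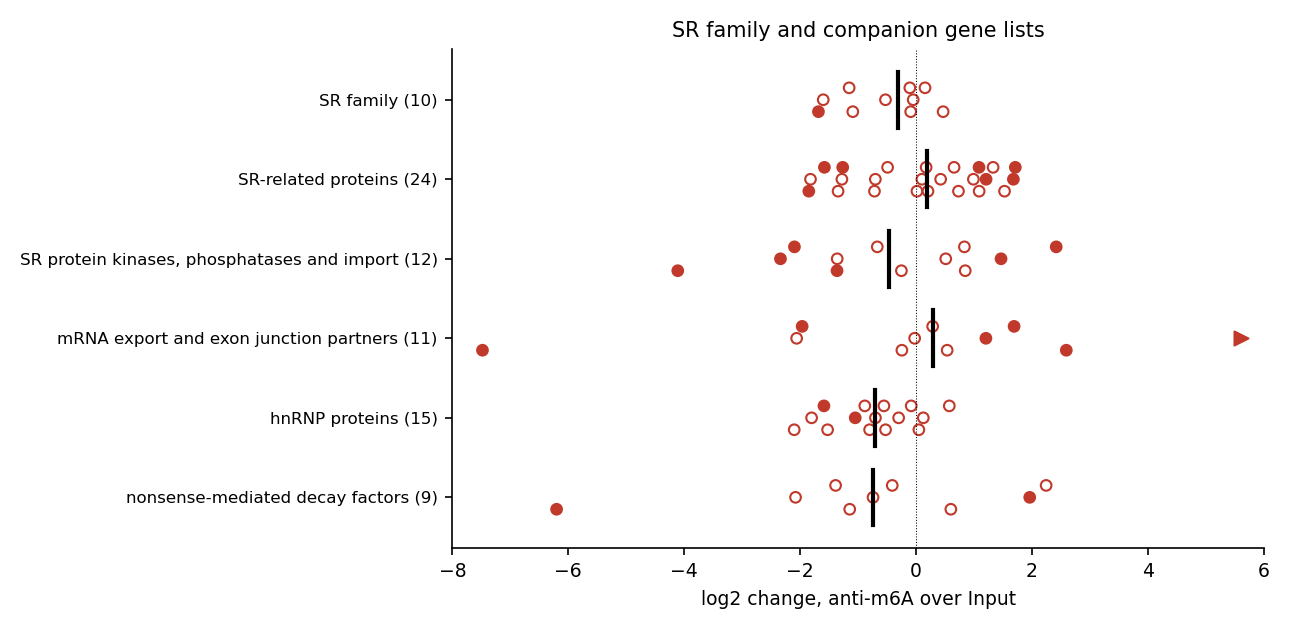
log2 change in anti-m6A over Input for the SR family and 5 companion lists (number of tested genes in brackets); filled points passed an adjusted p of 0.05, black bars are medians, and the arrowhead at the right edge is Nxt1, which had 0 counts in Input. The SR family runs between -1.68 and 0.47, and the hnRNP list holds 0 called points to the right of 0.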

How the data were processed

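The authors deposited counts for 6 libraries in 1 table, keyed by Entrez gene number, and the tests assume that these are raw counts. Per the labels' protocols, poly(A) RNA was pulled down and libraries were made by Smart-seq2, without molecular identifiers or strand. Tools listed in the submitters' processing notes are featureCounts, Picard and edgeR 3.38.1, with the build mm10, and the aligner is not given in the sources used here. Of 27179 gene numbers, 25275 matched a symbol in RefSeq's GRCm38.p6 table.

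The tests used edgeR 4.0.16 in R 4.3.3. Genes were kept by filterByExpr (minimum count 10, minimum total 15), which left 11281, and TMM gave the scaling. A single quasi-likelihood fit of the 3 groups (all 6 libraries, 3 residual degrees of freedom) was tested on simulated data. Each SE of a log2 change was worked back from this fit, as the size of the change over the square root of its F statistic. It therefore carries a spread shared by all 3 groups. Benjamini-Hochberg adjustment ran over all genes tested (threshold 0.05). For genes higher than both other groups the larger one-sided p was adjusted. A group at 0 was set to 3 counts per library, and the change written as at least so many fold. Alternatives were DESeq2 1.42.0 (size factors, Wald test), library totals, other filters, the replicate number as a block, only the 2 groups compared, and each library left out.

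Transcripts and positions came from GENCODE M21 on GRCm38, which mm10 names, with 1 coding transcript per gene; near copies (at least 95% identity over 100 bases) were found with blastn 2.17.0. The members, lists and tests were chosen with earlier results of these data known. The genes named were all members, the 3 highest and 3 lowest of each list against Input, 9 genes chosen by name, and the nearest genes by pattern; 1 gene that this rule names is not reported here. Where a count of called genes was small, the called genes outside this rule (Srrm1, Bclaf1 and Hnrnpa0 among them) were named after their values were seen.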

Additional observations from a re-analysis of the deposited data

How the results depend on the processing

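Of 368 alternative values of the members' log2 changes, 308 kept their direction and their side of the threshold, 18 came to pass it, 18 no longer passed it and 24 changed sign. Members higher in anti-m6A than in IgG numbered 8, beside 73.1% of all genes tested. With a filter of 10 counts in every library, which leaves 4 members to test, they numbered 2, beside 33.8% of all genes. The number fell when 1 library was left out. Members lower than IgG numbered 0, beside 8.31% of all genes. With the replicate number as a block they numbered 1 (Srsf2, at -0.84, edgeR adjusted p = 0.0261), beside 7.77%. Members lower than Input numbered 1, beside 20.5% of all genes. They numbered 4 with DESeq2's size factors (26.4% of all genes), library totals (27.7%) or the DESeq2 Wald test (27.5%, Srsf7 among the members). With only the 2 groups compared they numbered 3 (21.1%), and the number moved when 1 library was left out. The scalings shift single genes by a median of -0.44 (size factors) and -0.54 (totals). The share of higher calls is 47.6% and 45.5%, against 57.8%. Members higher than Input, and higher than both, numbered 0, beside 28.0% and 23.6% of all genes. The value of Srsf4 against Input turned on which Input library was left out. Members lower in IgG than in Input numbered 8, beside 61.5% of all genes, and 2 with the filter of 10 counts in every library, beside 32.5%. The number did not rise when 1 library was left out.

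Signs turned as follows. Against Input in anti-m6A, Srsf11 moved to -0.27 (size factors), -0.38 (totals) and -0.26 (Wald), and ran from -0.15 to 0.57 when 1 library was left out. Srsf10 moved to -0.078 (totals) and -0.10 (10 counts in every library). Srsf4 moved to 0.79 with the replicate block, and ran from -0.96 to 2.63 when 1 library was left out. Srsf3 moved to 0.0397 with the 2 groups alone, and ran from -0.16 to 0.0268 when 1 library was left out. Against IgG in anti-m6A, Srsf10 moved to -0.40 (totals) and ran from -0.22 to 0.51. In IgG against Input, Srsf2 moved to -0.27 (size factors), -0.66 (10 counts in every library), -0.28 (Wald) and -0.18 (the 2 groups) and ran from -0.24 to 0.79; Srsf10 moved to -0.15, -0.55, -0.15 and -0.0696 and ran from -0.0933 to 0.64. The cause of these turns was not tested.

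The replicate numbers are not stated to mark a shared origin. Deviations of same-numbered libraries correlated at 0.407 (anti-m6A and IgG), 0.214 (anti-m6A and Input) and 0.201 (IgG and Input) over 1589 genes. With the replicate block, 7 members were higher than IgG (without Srsf1, edgeR adjusted p = 0.143), beside 69.3% of all genes. In that fit 1 was lower than Input (11% of all genes) and 7 were lower in IgG than in Input (59.4%). Pull-down libraries at 0 limit what can be said of 5 members in IgG, and Srsf1 is close to the floor of 3 counts in anti-m6A.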
